A study of Mus musculus with 4 samples.

Results

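The nuclear-encoded subunits of oxidative phosphorylation were taken as the probe sets whose only gene symbol in the platform's annotation begins with Nduf, Uqcr, Cox4 to Cox8 or Atp5, or is Sdha, Sdhb, Sdhc, Sdhd, Cycs or Cyc1. The rule uses names alone and gave 184 probe sets of 92 genes, out of 34945 probe sets of 18193 genes with 1 symbol. It also takes in 8 assembly factors of complex I (Ndufaf genes) and 8 tissue forms of complex IV subunits, which are counted apart below. Of the 92 genes, 89 were bright enough to be tested; Cox7b2, Cox8b and Ndufa4l2 were not.

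RNA was measured on 4 Affymetrix Mouse Genome 430 2.0 arrays, 2 of Ezh2 KO leukemic cells and 2 of wild-type leukemic cells. All carried MLL-AF9, a fusion gene of the Mll histone methyltransferase that drives acute myeloid leukemia, and were purified from the marrow of C57BL/6 recipient mice. Ezh2 is the catalytic subunit of the Polycomb repressive complex that methylates histone H3. The labels contradict each other on the KO arrays, since the genotype entry gives Ezh2 KO while the protocol entry gives recipients repopulated with Ink4a-/-Arf-/- marrow cells; for the wild-type arrays both give wild type. Ezh2 itself measured 4989 and 4991 in KO arrays, against 5216 and 5315 in wild-type arrays (log2 difference -0.08, limma adjusted p = 0.484), and the position of its probes relative to any deleted exon was not analysed here. The labels do not state whether replicate arrays represent different mice or different leukemias, and the p-values therefore reflect a spread that may be technical.

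Oxidative phosphorylation is carried out by 5 complexes in the inner mitochondrial membrane. Complex I takes electrons from NADH and complex II from succinate, ubiquinone carries them to complex III, and cytochrome c carries them on to complex IV, which reduces oxygen. Complexes I, III and IV pump protons, and complex V, the ATP synthase, lets them flow back to make ATP. All but complex II also hold subunits encoded by the mitochondrial genome, so their assembly needs both genomes.

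Levels are given as linear probe set intensities, and for each gene the probe set with the highest mean over the 4 arrays was used. Differences are log2 values of KO minus wild type, computed after adding 16 to each intensity, with the standard error (SE) of limma's fit. A gene is called changed at a Benjamini-Hochberg adjusted p under 0.05 over the 13916 genes tested. Paired array values are given in replicate order, and levels of different genes are not compared because probe sets differ in response. In these bulk samples, fewer cells of a type and less RNA per cell cannot be told apart.

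Of the 89 genes tested, 14 were lower in Ezh2 KO arrays, 0 were higher and 75 were not called. Among all genes tested, 6.01% were called lower and 5.55% higher. The shift was broad and small: 78 of the 89 genes had a negative difference and 11 a positive one, with a median of -0.12 (1.09-fold lower in KO) and quartiles of -0.21 and -0.05. The median over all genes tested was 0.01. In 61 of the 89 genes (68.5%) both KO arrays lay below both wild-type arrays and in 6 both lay above, while 26.2% of all genes tested had KO below wild type. Only 4 genes were lower by 1.5-fold or more and 1, Cox6b2, by 2-fold or more.

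Most of these genes are bright, and bright genes were called more often. Among the 4493 genes with a mean intensity above 1000, 11.1% were called lower, 55.5% had a negative difference and the median difference was -0.03. In 37.7% of them both KO arrays lay below both wild-type arrays. Of the 76 oxidative phosphorylation genes above that level, 12 were called lower and 0 higher, 69 had a negative difference, and the median was -0.12. In 55 of the 76 (72.4%) both KO arrays lay below both wild-type arrays. Their differences were also closely grouped, with an SD of 0.15 over the 76 genes against 0.27 over the 4493. The 76 genes were brighter than the 4493, at a median intensity of 6029 against 2284. The part of brightness in these contrasts was not tested. For a typical one of the 76, the 95% confidence interval of limma reached 0.14 to either side, more than the median shift itself, so most single genes could not be resolved with 2 arrays per group.

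The shift appeared in each pairing of a KO array with a wild-type array. The median over the 89 genes was -0.14 for KO replicate 1 minus wild-type replicate 1 and -0.11 for KO replicate 1 minus wild-type replicate 2. It was -0.16 for KO replicate 2 minus wild-type replicate 1 and -0.10 for KO replicate 2 minus wild-type replicate 2. Between 68 and 78 of the 89 genes were negative in these pairings. Within a group the medians were smaller, 0.01 for the KO replicates (41 of 89 negative) and 0.03 for the wild-type replicates (34 of 89 negative). These pairings share arrays and are not independent of each other.

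**Figure D1:**
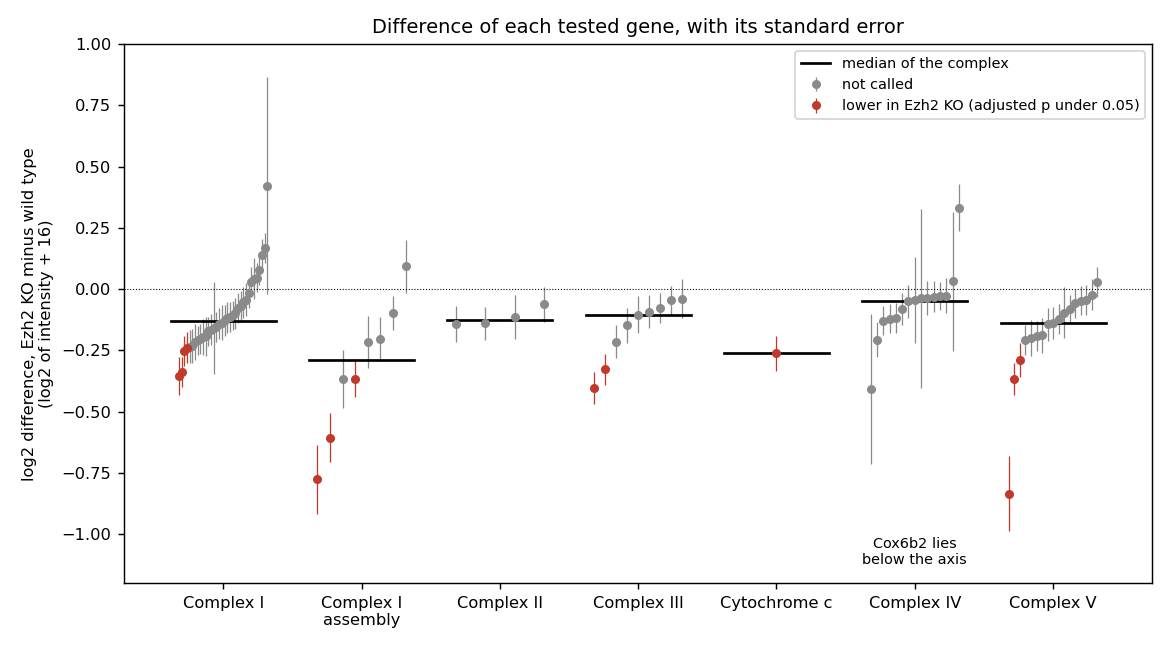
Log2 difference of Ezh2 KO minus wild type (vertical axis) for each tested gene, grouped by complex along the horizontal axis; bars are limma standard errors, red points are genes called lower, grey points were not called and black lines are medians. Medians run from -0.29 for complex I assembly factors to -0.05 for all tested complex IV genes, which with quantile normalization stood at -0.09 against -0.07 for complex III; Cox6b2, at -3.24, lies below the axis.

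The gene that differed most was Cox6b2, the form of the complex IV subunit 6B found mainly in testis. It measured 88.6 and 97.8 in KO arrays, against 1016 and 1019 in wild-type arrays. The groups were far apart and each pair was close, and the log2 difference of -3.24 (SE 0.14, limma adjusted p = 1.37e-06) is 9.47-fold lower in KO. It was the third largest fall among all genes called lower. The general form, Cox6b1, measured 14832 and 14816 in KO arrays against 15081 and 15122 in wild-type arrays, a log2 difference of -0.03 that was not called (limma adjusted p = 0.836).

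The stretches of 250 bases before the start sites of these paralogs are shown because the genes encode forms of 1 subunit and differed so much in KO. They are taken from RefSeq (GRCm38.p6), Cox6b2 at chr7:4753095-4753344 and Cox6b1 at chr7:30626115-30626364, both on the minus strand and written 5′ to 3′. Capitals mark matches on either strand to the motifs described further on; Cox6b2 has none and Cox6b1 has 1, an ETS motif 28 to 22 bases before the start.
Cox6b2: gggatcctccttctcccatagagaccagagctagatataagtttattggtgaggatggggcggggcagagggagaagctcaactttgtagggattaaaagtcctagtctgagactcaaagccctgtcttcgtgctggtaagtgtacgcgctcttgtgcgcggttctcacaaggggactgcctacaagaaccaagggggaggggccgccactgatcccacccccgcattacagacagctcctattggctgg
Cox6b1: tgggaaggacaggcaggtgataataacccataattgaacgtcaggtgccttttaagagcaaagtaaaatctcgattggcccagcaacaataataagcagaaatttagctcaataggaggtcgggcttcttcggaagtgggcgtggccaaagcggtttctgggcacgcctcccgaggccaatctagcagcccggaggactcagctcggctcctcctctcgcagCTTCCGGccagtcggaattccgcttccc
The Cox6b2 stretch holds 8 CpG dinucleotides and the Cox6b1 stretch 14.

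Other tissue forms of complex IV subunits did not follow Cox6b2. Cox8c, another testis form, measured 235 and 200 in KO arrays against 243 and 206 in wild-type arrays, and Cox4i2, a form known from lung, 46.4 and 84.2 in KO against 49.96 and 83.9 in wild type. Both pairs of groups overlap. Cox7a1, a heart and skeletal muscle form, measured 80.5 and 69.9 in KO against 72.2 and 74.0 in wild type. Cox6a2, also a muscle form, measured 50.2 and 54.2 in KO against 80.3 and 68.8 in wild type, which do not overlap but gave no call (log2 difference -0.41, SE 0.31, limma adjusted p = 0.474). None of these 4 was called, and with SEs of 0.18 to 0.36 only large differences could have been. The testis form Cox7b2, the muscle form Cox8b and the hypoxia-induced paralog Ndufa4l2 lay below the filter, which acts on the mean of the log2 values; of these Cox8b measured 39.8 and 26.2 in KO against 8.04 and 7.01 in wild type, too dim to be told from background. Cox7b2 measured 0.92 and 1.97 in KO against 17.1 and 0.569 in wild type, and Ndufa4l2 16.1 and 8.75 in KO against 10.9 and 6.36 in wild type. Of the 10 listed germ cell forms of energy metabolism enzymes, 4 were tested and Cox6b2 was the only one called; Ldhc, the testis lactate dehydrogenase, measured 60.8 and 61.7 in KO against 32.2 and 58.6 in wild type. Ckm, the muscle creatine kinase, was lower in KO as well, at 153 and 130 against 297 and 230 in wild type (log2 difference -0.82, limma adjusted p = 0.0255), while the other muscle markers tested were not called.

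**Figure D2:**
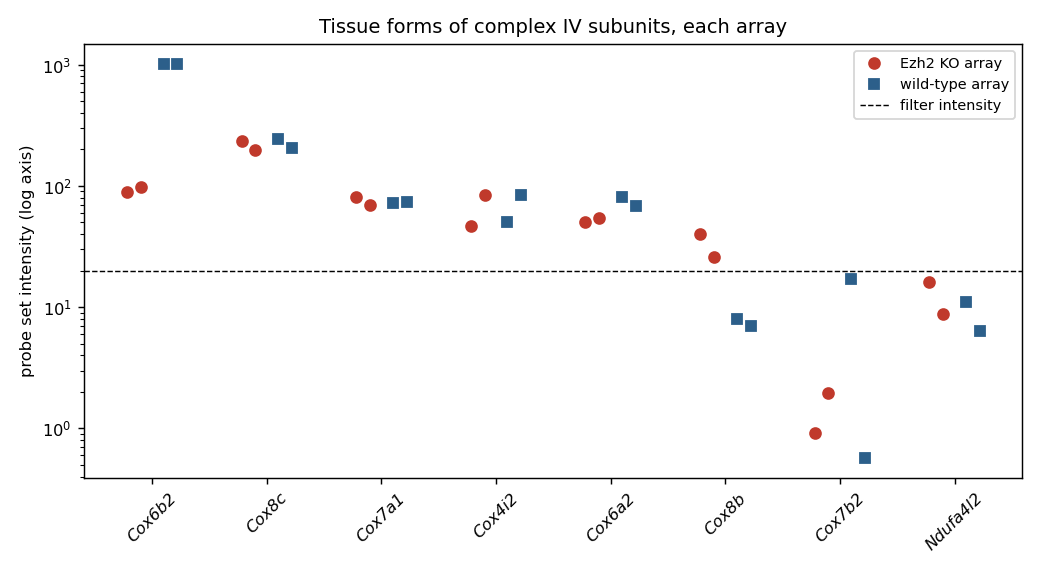
Intensity on each array (log axis) of the 8 tissue forms of complex IV subunits, KO arrays as circles and wild-type arrays as squares to their right; the dashed line is the filter intensity of 20.0. Among the forms bright enough to be tested, only Cox6b2 separates widely, near 90 in KO and near 1000 in wild type. Cox8b, too dim to be tested, lies apart the other way, at 39.8 and 26.2 in KO and 8.04 and 7.01 in wild type.

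Complex I, the NADH dehydrogenase, had 34 subunit genes tested, of which 4 were lower, 0 higher and 27 negative; KO lay below wild type in 24 and above it in 5, and the median was -0.13. The 6 core subunits, which hold the flavin and the iron-sulfur clusters, were all negative with KO below wild type, at a median of -0.20, but none was called at its representative probe set. Ndufv1, which binds the flavin and NADH, came nearest, at 2475 and 2600 in KO against 2929 and 3047 in wild type (log2 difference -0.23, limma adjusted p = 0.0513). Ndufv2, an iron-sulfur subunit beside it, measured 5752 and 5516 in KO against 6585 and 6443 in wild type (limma adjusted p = 0.0542). The 28 accessory subunits held all 4 calls, with a median of -0.11.

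Ndufa5, an accessory subunit of the arm that reduces ubiquinone, measured 1679 and 1883 in KO arrays against 2282 and 2271 in wild-type arrays (log2 difference -0.35, SE 0.08, limma adjusted p = 0.0169). Ndufb2, of the membrane arm, measured 3428 and 3380 in KO against 4393 and 4219 in wild type (log2 difference -0.34, SE 0.06, limma adjusted p = 0.00752). Ndufa12, of the NADH-binding arm, measured 4734 and 4968 in KO against 5681 and 5870 in wild type (log2 difference -0.25, SE 0.06, limma adjusted p = 0.0291). Each of these pairs of groups is separate, by 1.19-fold to 1.28-fold. Ndufb5, also of the membrane arm, measured 5985 and 6172 in KO against 7423 and 6935 in wild type (log2 difference -0.24, SE 0.06, limma adjusted p = 0.0390). When an array was left out, the lone array of its group was taken to vary like the other group. Without wild-type replicate 1 the differences, with limma adjusted p-values in parentheses, were -0.35 (0.0869) for Ndufa5, -0.31 (0.0581) for Ndufb2, -0.28 (0.0862) for Ndufa12 and -0.19 (0.189) for Ndufb5. Without wild-type replicate 2 they were -0.36 (limma adjusted p = 0.0622) for Ndufa5, -0.23 (0.118) for Ndufa12 and -0.29 (0.0528) for Ndufb5. Without KO replicate 1 they were -0.27 (limma adjusted p = 0.0617) for Ndufa5, -0.22 (0.0982) for Ndufa12 and -0.22 (0.0898) for Ndufb5. When the probe sets of each gene were averaged, Ndufa5 was at -0.22 (limma adjusted p = 0.128), Ndufb2 at -0.40 (0.268) and Ndufa12 at 0.023 (0.893), and Ndufb5 kept its call. The Ndufb2 average takes in a dim probe set, at 9.82 and 81.6 in KO against 60.0 and 53.5 in wild type. The brighter probe sets of Ndufb2, at -0.34 and -0.32, were both lower when tested singly.

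A few complex I subunits ran the other way without a call. Ndufb7, at the far end of the membrane arm, measured 8678 and 8532 in KO against 7929 and 7392 in wild type (log2 difference 0.17, limma adjusted p = 0.123), and Ndufs4, of the NADH-binding arm, 2504 and 2426 in KO against 2229 and 2241 in wild type (0.14, limma adjusted p = 0.227). Ndufb4 had the most positive difference, 0.42 with an SE of 0.44, but its probe set is dim, at 31.3 and 31.9 in KO against 22.8 and 16.5 in wild type. The probe sets that read Ndufb4 brightly carry several symbols and are outside the rule. Ndufb11, of the membrane arm, measured 10432 and 10068 in KO against 9989 and 9865 in wild type (0.05, limma adjusted p = 0.706). Ndufa1, a membrane arm subunit, measured 11821 and 11867 in KO against 13405 and 12487 in wild type (-0.13, limma adjusted p = 0.246).

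Assembly factors of complex I, which help build the complex without being part of it, had the lowest median of the groups. Of 8 tested, 3 were lower and 7 negative, with KO below wild type in 7 and a median of -0.29. Ndufaf4 measured 1104 and 1135 in KO against 1541 and 1901 in wild type (log2 difference -0.61, SE 0.10, limma adjusted p = 0.00441). Ndufaf6 measured 282 and 321 in KO against 478 and 581 in wild type (log2 difference -0.78, SE 0.14, limma adjusted p = 0.00701). These are 1.52-fold and 1.71-fold lower in KO, among the larger falls of the set. Ndufaf8, known in human cells as a partner of Ndufaf5, measured 1751 and 1915 in KO against 2423 and 2303 in wild type (log2 difference -0.36, SE 0.07, limma adjusted p = 0.0125). Ndufaf5 itself measured 354 and 364 in KO against 470 and 463 in wild type and was not called (-0.37, limma adjusted p = 0.0805). Ndufaf3 measured 2115 and 2181 in KO against 2367 and 2230 in wild type (-0.10), and Ndufaf7, a methyltransferase that modifies a core subunit, 634 and 562 in KO against 563 and 554 in wild type (0.09); neither was called. Without wild-type replicate 2, Ndufaf6 was at -0.64 (limma adjusted p = 0.0534), and without wild-type replicate 1, Ndufaf8 was at -0.33 (0.0878). Ndufaf8 was at -0.30 (limma adjusted p = 0.0613) when its probe sets were averaged.

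Complex II, the succinate dehydrogenase, had no call among its 4 subunits. Sdhb, the iron-sulfur subunit, measured 3234 and 3269 in KO against 3801 and 3387 in wild type (log2 difference -0.14), and Sdhd, a membrane anchor, 3420 and 3731 in KO against 3892 and 3980 in wild type (-0.14). Both have KO below wild type. Sdha, the flavin subunit, measured 5651 and 5149 in KO against 5868 and 5401 in wild type (-0.06), and Sdhc, the other anchor, 1355 and 1167 in KO against 1346 and 1378 in wild type (-0.11). In these the groups overlap, and the limma adjusted p-values of the 4 genes ran from 0.241 to 0.672.

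Complex III, the cytochrome bc1 complex, had 9 genes tested, all with a negative difference, of which 2 were lower; the median was -0.10. Both called genes encode small subunits without a redox centre. Uqcr11 measured 3215 and 3259 in KO against 4459 and 4116 in wild type (log2 difference -0.40, SE 0.07, limma adjusted p = 0.00421). Uqcrq measured 2464 and 2494 in KO against 3152 and 3078 in wild type (log2 difference -0.33, SE 0.06, limma adjusted p = 0.00995). The redox subunits were not called: Cyc1, cytochrome c1, measured 4885 and 4835 in KO against 5610 and 4868 in wild type (-0.10), and Uqcrfs1, the Rieske protein, 3621 and 3840 in KO against 3812 and 4141 in wild type (-0.09). Uqcrc2, a core protein, measured 7358 and 7409 in KO against 7602 and 7975 in wild type (-0.08), and Uqcrh, the hinge protein, 5903 and 5882 in KO against 6149 and 6005 in wild type (-0.04). Uqcrb, another small subunit, had groups that overlap, at 28235 and 24204 in KO against 27515 and 26225 in wild type (-0.04). Uqcrq was at -0.31 (limma adjusted p = 0.0647) without wild-type replicate 1, and at 0.18 (0.638) when its probe sets were averaged.

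Cytochrome c, encoded by Cycs, carries electrons between complexes III and IV and also takes part in apoptosis when released from mitochondria. It measured 15118 and 14657 in KO against 16761 and 19005 in wild type (log2 difference -0.26, SE 0.07, limma adjusted p = 0.0455). Other probe sets of Cycs separated more: 7006 and 7183 in KO against 9667 and 9864 in wild type, and 4512 and 4696 in KO against 6265 and 6426 in wild type. Both gave a log2 difference of -0.46, with limma adjusted p-values of 0.00188 and 0.00248 over all probe sets. At the representative probe set the difference was -0.17 (limma adjusted p = 0.214) without wild-type replicate 2 and -0.36 (0.0684) with median centring. The average of the Cycs probe sets was at -0.30 (limma adjusted p = 0.0572).

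Complex IV, the cytochrome c oxidase, had a small shift in its general subunits: of 10 tested, 0 were called, 9 were negative, KO lay below wild type in 6 and the median was -0.06. Cox8a, a small membrane subunit, had the largest fall of the 10, at 5536 and 5823 in KO against 6952 and 6174 in wild type (log2 difference -0.21, limma adjusted p = 0.103). Cox5a measured 18246 and 18356 in KO against 18478 and 20240 in wild type (-0.08), and Cox6a1 22043 and 20365 in KO against 22421 and 21458 in wild type (-0.05). Cox7c ran the other way, at 805 and 768 in KO against 628 and 615 in wild type, and missed the threshold narrowly (log2 difference 0.33, SE 0.09, limma adjusted p = 0.0507). It passed with a stricter filter (limma adjusted p = 0.0393) and with 64 added to each intensity (0.0496), and moved away from the threshold with quantile normalization (0.31, limma adjusted p = 0.0684) and with median centring (0.24, 0.266). Cox7a2l, which joins complexes III and IV into supercomplexes, measured 4725 and 5121 in KO against 5203 and 4891 in wild type (-0.04).

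Complex V, the ATP synthase, had 17 genes tested, of which 3 were lower, 0 higher and 16 negative, with a median of -0.14. Its parts differed in whether the arrays separated. At the representative probe sets, KO lay below wild type in all 13 genes of the F1 head, the c-ring and the other membrane subunits. In all 4 genes of the peripheral stalk (Atp5h, Atp5j, Atp5o and Atp5pb) the groups overlapped, at a median of -0.03. KO lay below wild type in 26.2% of all genes tested and in 37.7% of those above an intensity of 1000. Other bright probe sets did not all follow this split. Another probe set of Atp5a1, of the F1 head, overlapped, and another of Atp5h had KO above wild type. The difference between these parts was not tested. Atp5h, of the stalk, measured 16420 and 15607 in KO against 15913 and 15453 in wild type (0.03), and Atp5pb, also of the stalk, 17113 and 17860 in KO against 17556 and 18506 in wild type (-0.04). The F1 head, which holds the catalytic sites, had no call among 5 genes; Atp5b, the catalytic subunit, measured 13114 and 13490 in KO against 14270 and 16109 in wild type (-0.19, limma adjusted p = 0.127).

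Atp5md, also called DAPIT, a small membrane subunit that helps dimers of the enzyme form, had the largest fall after Cox6b2. It measured 1340 and 1488 in KO against 2065 and 3101 in wild type (log2 difference -0.83, SE 0.15, limma adjusted p = 0.00743), 1.78-fold lower, with the wild-type arrays well apart from each other. Atp5g1, 1 of 3 genes for the same subunit c of the proton-carrying ring, measured 3791 and 3650 in KO against 4968 and 4648 in wild type (log2 difference -0.37, SE 0.07, limma adjusted p = 0.00612). The other genes for that subunit were not called, Atp5g2 at -0.19 (limma adjusted p = 0.0745) and Atp5g3 at -0.08 (0.441). Atp5k, the subunit e that also bears on dimers, measured 6472 and 6313 in KO against 8279 and 7361 in wild type (log2 difference -0.29, SE 0.07, limma adjusted p = 0.0280). Without wild-type replicate 1, Atp5g1 was at -0.32 (limma adjusted p = 0.0542) and Atp5k at -0.20 (0.161). Averaging its probe sets, of which 1 is dim and positive, put Atp5g1 at -0.07 (limma adjusted p = 0.790).

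**Figure D3:**
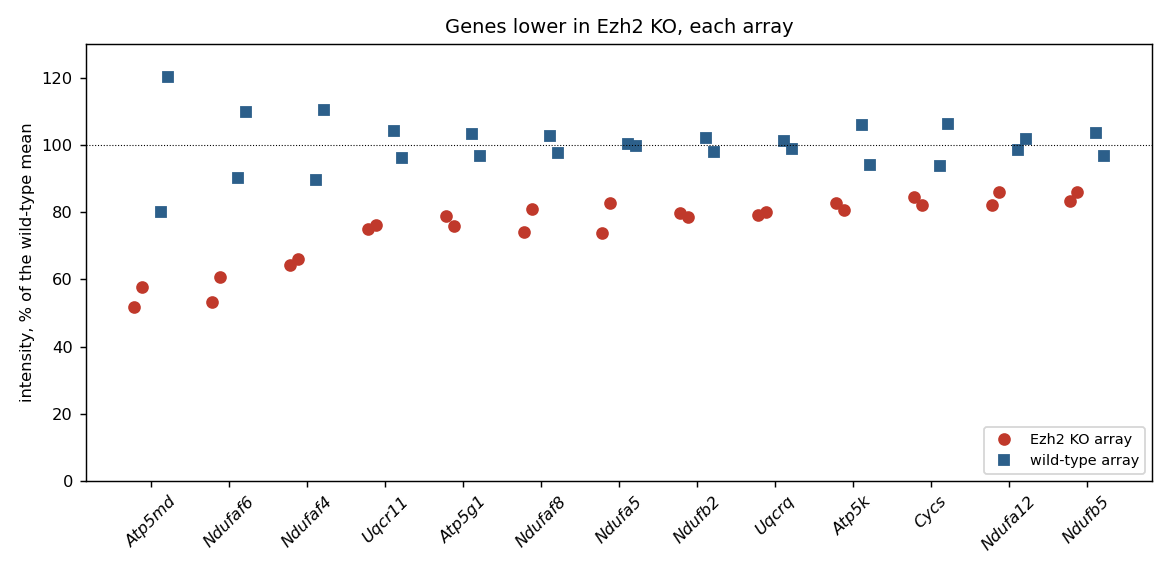
Intensity on each array, as a percentage of the wild-type mean of the same probe set, for the 13 genes called lower other than Cox6b2, KO arrays as circles left of the wild-type squares. In each gene both circles lie below both squares, by 1.18-fold to 1.78-fold on average.

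How many genes were called depended on the settings more than the direction did. With 1 prior variance for all genes in place of a prior that follows intensity, 0 of the 89 were called, 15 had an unadjusted p under 0.05 and the lowest limma adjusted p, that of Cox6b2, was 0.0631; over all genes that setting also called 0. Leaving out wild-type replicate 1 left 6 genes lower, without wild-type replicate 2 there were 10, without KO replicate 1 there were 13 and without KO replicate 2 there were 18. Cox6b2, Atp5md, Ndufaf4 and Uqcr11 were called in 13 of the 14 alternatives tried, all but the single prior variance. Without the filter on dim genes 10 were lower, and Atp5k (limma adjusted p = 0.0610), Cycs (0.108), Ndufa12 (0.0513) and Ndufb5 (0.0704) lost their calls at the same differences. Averaging the probe sets of each gene left 7 lower. Median centring lowers every difference by the same amount, and 85 of the 89 genes were then negative, with Atp5h, Cox7a1, Ndufaf7 and Ndufb11 among those that turned.

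All probe sets of the genes were also tested singly. Of 184 probe sets, 175 were tested in a fit over 25576 probe sets; 25 were lower, from 18 genes, and 0 were higher, where 3.89% of all probe sets tested were lower and 4.03% higher. Without wild-type replicate 1, 8 of the probe sets were lower. Above a mean of 500, 121 of 138 probe sets were negative (87.7%) and 24 were lower; at 500 or less, 15 of 37 were negative (40.5%), 1 was lower and the median was 0.03. Many genes of this family have near-identical processed pseudogenes, and 46 of the 175 tested probe sets, including 9 of the 25 lower ones, bear the suffixes that Affymetrix gives to probes able to match several transcripts.

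Of the 10 genes that were lower and had more than 1 probe set tested, 5 had a further probe set lower. A second probe set of Ndufaf4 measured 462 and 504 in KO against 736 and 733 in wild type (log2 difference -0.59), close to the first. Conversely, 5 genes that were not called had a probe set that was: Atp5d, Cox8a, Ndufa7, Ndufc1 and Ndufs8. Ndufs8, a core iron-sulfur subunit of complex I, had 3 lower probe sets. They measured 5007 and 4613 in KO against 6707 and 6743 in wild type (log2 difference -0.48, limma adjusted p = 0.00259), 1737 and 1815 in KO against 2381 and 2260 in wild type (-0.38, 0.0141), and 1610 and 1629 in KO against 2174 and 1984 in wild type (-0.36, 0.0249). The representative probe set of Ndufs8, at 5988 and 5715 in KO against 7150 and 6278 in wild type (-0.20, limma adjusted p = 0.164 in that fit), had the highest mean but was not called.

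**Figure D4:**
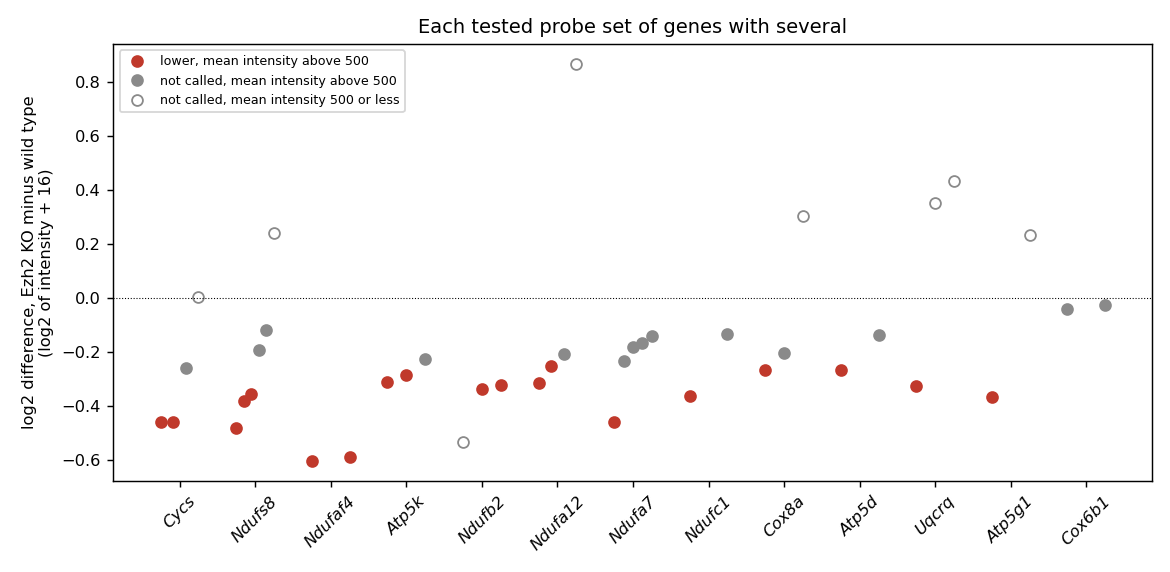
Log2 difference of Ezh2 KO minus wild type (vertical axis) of every tested probe set of 13 genes with more than 1, chosen after their values were seen; red points were called lower, grey points were not, and open circles have a mean intensity of 500 or less. In Cycs, Ndufs8, Ndufaf4, Atp5k, Ndufb2 and Ndufa12 more than 1 probe set was lower, and all positive differences come from dim probe sets.

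Promoters of the genes were searched for motifs of factors known to act on nuclear genes for mitochondria. The window of 250 bases before to 50 after the start, from RefSeq (GRCm38.p6), was available for 75 of the 92 genes and searched on both strands for exact letters, counting a gene once. GCGCATGCG (NRF1, nuclear respiratory factor 1) was found in 10 of the 75 (13.3%), against 1.95% of all 27025 genes with such a window and 3.70% of the tested genes. CCGGAAG (the ETS motif that GABP reads) was found in 19 (25.3%), against 9.93% of all genes and 18.1% of tested genes. AAGATGGC (YY1) was found in 10 (13.3%), against 3.19% of all genes and 4.82% of tested genes. TGACGTCA (CREB) was found in 4 (5.33%), against 2.03% and 3.25%, and TCAAGGTCA (ERR) in 2 (2.67%), against 0.466% and 0.383%. Any of these was found in 37 of the 75 (49.3%), against 15.9% of all genes and 26.9% of tested genes. Tested genes are the closer comparison in base composition, with a median of 19 CpG dinucleotides per window against 20 for the 75 and 7 for all genes.

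Among the 12 lower genes with a window, 4 held NRF1 (33.3%) and 7 held any motif (58.3%), against 6 (9.84%) and 30 (49.2%) of the 61 genes not called. These counts are small and were not tested. A match is a description of the letters and not a binding site. Cycs, known in rat as a target of NRF1 and CREB, and Ndufaf4 are shown because both were lower in KO and hold the NRF1 motif. The Cycs stretch, chr6:50566570-50566819 on the minus strand, has CREB at 169 to 162 and NRF1 at 61 to 53 bases before the start. The Ndufaf4 stretch, chr4:24897833-24898082 on the plus strand, has NRF1 on both strands, overlapping, at 113 to 105 and 112 to 104 bases before the start. Capitals mark these matches.
Cycs: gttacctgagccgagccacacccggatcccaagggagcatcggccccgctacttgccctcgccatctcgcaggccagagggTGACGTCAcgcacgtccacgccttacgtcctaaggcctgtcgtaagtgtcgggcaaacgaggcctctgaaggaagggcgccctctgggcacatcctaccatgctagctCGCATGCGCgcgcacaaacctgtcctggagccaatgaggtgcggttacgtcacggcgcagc
Ndufaf4: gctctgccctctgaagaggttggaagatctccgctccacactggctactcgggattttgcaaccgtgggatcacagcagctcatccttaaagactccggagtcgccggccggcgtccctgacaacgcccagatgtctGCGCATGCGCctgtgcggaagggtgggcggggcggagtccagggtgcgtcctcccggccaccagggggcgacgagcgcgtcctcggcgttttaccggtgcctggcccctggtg
Each stretch holds 23 CpG dinucleotides.

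Regulators that read the NRF1, ETS, YY1 and ERR motifs were on the list of regulators of mitochondrial biogenesis; CREB factors were not. Nrf1 measured 599 and 604 in KO against 618 and 582 in wild type (log2 difference 0.00), Gabpa 3491 and 3633 in KO against 3712 and 3167 in wild type (0.05), and Yy1 8062 and 8318 in KO against 8003 and 7911 in wild type (0.04). Esrra measured 612 and 553 in KO against 468 and 505 in wild type (0.25, limma adjusted p = 0.205). None of these 4 was called. Of the 21 regulators of mitochondrial biogenesis tested, 2 were lower and 0 higher, where 6.01% of all genes tested were lower and 5.55% higher. Myc, a transcription factor that drives growth genes, measured 2309 and 2214 in KO against 3265 and 3300 in wild type (log2 difference -0.53, SE 0.07, limma adjusted p = 8.17e-04). Ssbp1, the single-strand binding protein of mitochondrial DNA, measured 5553 and 5400 in KO against 7036 and 6950 in wild type (log2 difference -0.35, limma adjusted p = 0.00460).

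The mitochondrial genome is represented by 1 gene, ND5, a proton-pumping core subunit of complex I. It measured 11298 and 11224 in KO against 8511 and 10120 in wild type, higher in both KO arrays but not called (log2 difference 0.28, SE 0.08, limma adjusted p = 0.0553).

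Other mitochondrial lists were counted beside the subunits. For comparison with the counts in this and the next paragraphs, 6.01% of all genes tested were lower and 5.55% higher. Among genes above an intensity of 1000, 11.1% were lower. Of 76 mitochondrial ribosomal protein genes tested, 20 were lower, 1 higher and 69 negative, with a median of -0.21, whereas of 52 cytosolic ribosomal protein genes 3 were lower, 1 higher and 23 negative, with a median of 0.01. Of 38 assembly factors outside the naming rule, 6 were lower (Coa5, Uqcc3, Lrpprc, Bcs1l, Cox19 and Sdhaf1), 1 was higher (Cox18) and the median was -0.15. Lrpprc, which stabilises mitochondrial messenger RNAs, measured 995 and 957 in KO against 1271 and 1224 in wild type (log2 difference -0.35, limma adjusted p = 0.0224). Cox18, which inserts a complex IV subunit into the membrane, measured 1304 and 1276 in KO against 1025 and 1047 in wild type (0.31, limma adjusted p = 0.0313).

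**Figure D5:**
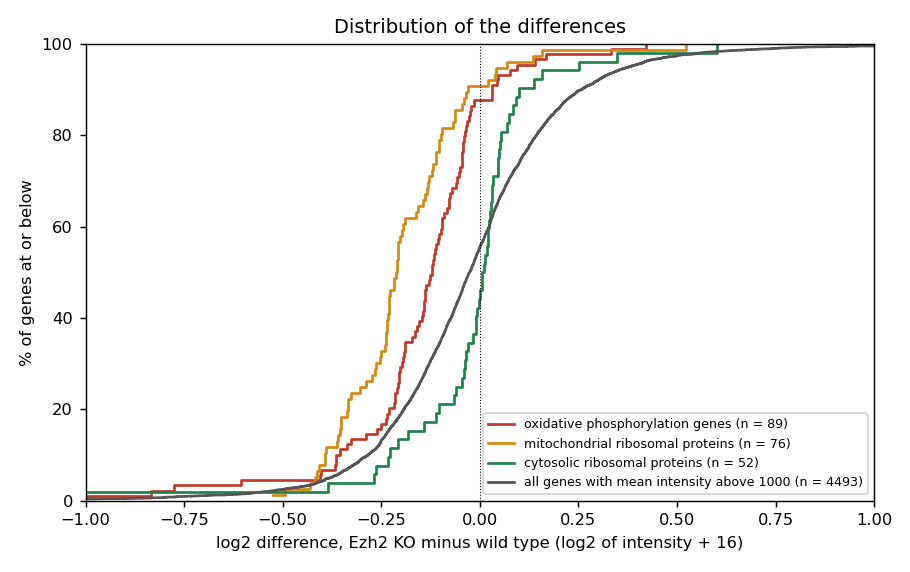
Cumulative percentage of genes (vertical axis) at or below each log2 difference of Ezh2 KO minus wild type (horizontal axis, shown from -1 to 1) for the 89 oxidative phosphorylation genes, 76 mitochondrial and 52 cytosolic ribosomal protein genes and the 4493 tested genes above an intensity of 1000. The medians are -0.12, -0.21, 0.01 and -0.03 in that order.

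The tricarboxylic acid cycle feeds the chain with NADH and succinate. Of 16 genes of the cycle and of pyruvate dehydrogenase (Pdha1, Pdhb and Dlat), 3 were lower, 0 higher and the median was -0.16. Idh3a, a subunit of the NAD-dependent isocitrate dehydrogenase, measured 3720 and 3617 in KO against 5002 and 4846 in wild type (log2 difference -0.42, SE 0.06, limma adjusted p = 0.00219); Suclg2 and Idh2 were both at -0.25. The enzymes that hand electrons to ubiquinone without complex I or II, counted with the enzymes of coenzyme Q synthesis, split: of 18 tested, 3 were higher and 3 lower. Prodh, the proline dehydrogenase, measured 1458 and 1532 in KO against 991 and 1107 in wild type (0.51, limma adjusted p = 0.00460), and Sqor, the sulfide dehydrogenase, 2544 and 2337 in KO against 1810 and 1800 in wild type (0.43, limma adjusted p = 0.00455). Gpd2, the mitochondrial glycerol phosphate dehydrogenase, was at 0.30, while Etfb (-0.23), Coq7 (-0.35) and Dhodh (-0.34) were lower. These 3 higher genes all pass electrons to the quinone pool, as Dhodh also does. Etfb does so only by way of Etfdh, which was not called (-0.02, limma adjusted p = 0.946).

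The 7 tested carriers and channels for adenine nucleotides and phosphate had no call; Slc25a3, the phosphate carrier, measured 13423 and 14104 in KO against 15750 and 15833 in wild type (-0.20, limma adjusted p = 0.0634). Of 8 mitochondrial antioxidant enzymes 2 were lower. Sod2, the manganese superoxide dismutase, measured 1991 and 2114 in KO against 2891 and 2888 in wild type (log2 difference -0.49, limma adjusted p = 0.00167), and Prdx3, a mitochondrial peroxiredoxin, 1932 and 1878 in KO against 2511 and 2468 in wild type (-0.38, limma adjusted p = 0.00572).

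Markers of the labelled myeloid cell type were present: the granule protein genes Mpo (36399 and 32237 in KO, 32252 and 32222 in wild type) and Elane (21472 and 18419 in KO, 20265 and 20425 in wild type) were bright in all arrays. Of 8 myeloid markers tested, 3 were higher in KO, Itgam (log2 difference 0.74), Cd33 (0.71) and Csf1r (0.48). The summed level of the list, mostly from Mpo and Elane, was 75110 to 82959 in KO and 72242 to 72664 in wild type. Mpo and Elane themselves were not called, and their groups overlap. The part of the myeloid markers in the shift of the subunits was not tested. Markers of other cells were low and, apart from Ckm, not called. Their summed intensities were 840 to 965 in KO and 825 to 839 in wild type for B cells (mostly Cd79b), and 246 to 320 in KO and 193 to 240 in wild type for T cells. They were 183 to 185 in KO and 157 to 211 in wild type for erythroid cells, and 397 to 469 in KO and 314 to 324 in wild type for megakaryocytes. They were 452 to 561 in KO and 526 to 602 in wild type for stroma and endothelium, and 288 to 407 in KO and 344 to 491 in wild type for muscle. Hba-a1, the hemoglobin alpha chain, was under 10 on every array.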

How the data were processed

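Total RNA of 4 leukemic cell samples was hybridised to Affymetrix Mouse Genome 430 2.0 arrays. Per the submitters' processing notes, the deposited intensity values were made with Affymetrix Expression Console. Its version and algorithm were not given in the sources used here, and values were read as linear. Each array had a mean of 500.003 after trimming 2% at each end and the quantiles differed, so any difference in total mRNA per cell is removed and no quantile normalization is present.

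Of 45101 probe sets, 64 were controls, 34945 had 1 gene symbol, 932 had several and 9160 were in no row of the gene table. For each of 18193 genes the probe set with the highest mean was used, and the 13916 genes whose mean of log2(intensity + 16) exceeded that of the 30th percentile (intensity 20.0) were tested. The deposited intensities were taken as log2(intensity + 16) and fitted with lmFit and eBayes of limma 3.58.1 (R 4.3.3) with a trended prior, giving 2 residual and 9.56 total degrees of freedom. A second fit covered 25576 probe sets. The fit was also run on simulated data, with variances drawn from its own prior and planted changes larger than those of most subunits. That run therefore does not show how well such small differences are resolved, or whether the prior is right. Figures used matplotlib 3.10.9 in Python 3.11.15.

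Groups and replicate numbers came from the sample titles. Members and lists were chosen with earlier results of these data known. The genes named were all called members, the brightest and most changed of each complex, tissue forms, and from each list up to 4 called genes or 2 of highest mean; other genes named (Cox6b1, the uncalled regulators, ND5 and further examples) were chosen after their values were seen. No set test was run. The alternatives were other normalizations, filters, pseudocounts, probe set rules and priors, a replicate block, and leaving out each array. Detection calls were not used, so dim values cannot be told from background, and both the number of arrays and low intensity limit the precision.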

Additional observations from a re-analysis of the deposited data

How the results depend on the processing

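With 2 arrays per group, small differences such as those of most subunits rest on the trended prior. The number of genes lower, 14, became 7 when probe sets were averaged per gene, 0 with a single prior variance and 29 with the replicate block, and 6 to 18 when each array was left out. The number higher, 0, became 1 with the filter at the 50th percentile, 1 with a pseudocount of 64 and 2 with the replicate block. Probe sets lower, 25, became 0 with a single prior variance, 44 with the replicate block and 8 to 23 without 1 array; probe sets higher, 0, became 2 with the replicate block and 0 to 1 without 1 array. The labels share replicate numbers but state no pairing. Deviations of same-numbered arrays correlated at 0.04 over all genes and 0.21 over genes above 1000, and with the block 2719 genes were called over all, against 772 higher and 836 lower without it. The median of the genes, -0.12, was -0.22 with median centring, where the median of all genes was -0.09. Median centring shifts all genes alike; relative to all genes the median was -0.13 in the reported fit and -0.09 with quantile normalization. That setting also put complex IV at -0.09 and complex III at -0.07, against -0.05 and -0.10 in the reported fit. With probe sets averaged per gene, Ndufa12 was 0.023 and Uqcrq 0.18, both without a call. Their probe sets differ in sign, and the cause was not tested. In Ndufa12 the only positive probe set, at 0.87, is dim, with a mean intensity of 54.2. The brighter probe sets of Ndufa12 were at -0.32 to -0.21. Of 657 other comparisons of a value with an alternative, 591 counted as the same. Of the rest, 40 lost a call, 4 gained one, 20 moved and 2 reversed. A gene counted as the same if it kept direction and side of the threshold. A gene uncalled in both fits also did if it changed sign by less than its replicate SD. A median counted as the same, whatever its sign, if it moved by less than 0.06, the pooled SD of the array medians.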

Other observations

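Probe sets that carry the symbols of several genes stand outside the set and were not tested. There were 10 with an oxidative phosphorylation symbol, 6 of them above an intensity of 1000, and in all 6 both KO arrays lay below both wild-type arrays, with log2 differences of -0.31 to -0.15. The probe set shared by Ndufb4 and its copies Ndufb4b and Ndufb4c measured 2997 and 2996 in KO against 3969 and 3480 in wild type, and the one shared by Ndufs5 and its pseudogene 2970 and 3318 in KO against 3655 and 3699 in wild type. A dim probe set shared by Ndufb2 and Adck2 ran the other way, at 126 and 150 in KO against 81.2 and 76.9 in wild type.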
